A study of Mus musculus with 4 samples.

Results

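Engulfment of dying cells, debris and synapses depends on receptors that read phosphatidylserine, a lipid that surplus membranes expose on their surface. The genes examined were 10 members of this machinery, chosen by name as the rows for Mertk, Axl, Tyro3, Gas6, Pros1, Megf10, Mfge8, Gulp1, Lrp1 and Abca7, out of 55467 genes listed. RNA was sequenced from primary astrocytes, the star-shaped glia that support neurons, of WT mice (2 libraries) and of CD38 KO mice (2 libraries), which lack the NAD+-consuming surface enzyme CD38. Cells came from the cortex of pups 1 to 3 days old, were grown in 10% serum, freed of loose cells by shaking for 12 h after 14 days, and harvested 5 days after replating, in the same way for both genotypes. The sources used here do not give the deleted part of Cd38, the strains or the sex of the pups, so loss of Cd38 and a strain difference between the genotypes cannot be told apart.

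TYRO3, AXL and MERTK form the TAM family of receptor tyrosine kinases, and their ligands GAS6 and protein S (from Pros1) bridge them to phosphatidylserine. Astrocytes are known to take up synapses and debris through MERTK and MEGF10. MFGE8 bridges phosphatidylserine to integrins, LRP1 is a large endocytic receptor, GULP1 is an adaptor that binds the tails of MEGF10 and LRP1, and ABCA7 is a lipid transporter known to promote phagocytosis. MERTK, AXL, GAS6 and protein S are also made by macrophages.

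The libraries held an estimated 26565000 to 28810000 fragments each. Cd38 checked the labels, with 3.13 and 3.45 FPKM (fragments scaled to transcript length and library size) in WT against 0.0222 FPKM in both CD38 KO libraries, or 259 and 300 fragments against 2 and 2. Its log2 change was -2.07 (SE 0.13, limma adjusted p = 0.000575). The 15 astrocyte markers of the list summed to 4710 to 5660 FPKM per library, with Gfap between 1198 and 1390 FPKM. Not all of them were abundant: S100b ran from 3.51 to 11.4 FPKM and Gjb6 reached at most 0.538 FPKM, both named after their values were seen. Macrophage markers differed by genotype: the 11 genes of the list summed to 108 and 91.2 FPKM in WT and to 729 and 650 FPKM in CD38 KO, and the 17 microglia markers to 48.5 and 49.3 against 286 and 253 FPKM. Whether replicates came from separate animals or cultures is not stated in the labels, so that p-values here measure no more than the spread between these libraries, which may be technical.

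Mertk, Pros1 and Gulp1 were higher in CD38 KO and Mfge8 and Gas6 lower, while Axl, Tyro3, Megf10, Lrp1 and Abca7 were not called. All 10 members were above 1 FPKM in every library and were tested, the filter being a mean of at least 1 FPKM. A gene was called when limma on log2(FPKM + 1) gave a Benjamini-Hochberg adjusted p under 0.05 over all 13064 tested genes. The 3 higher members stand beside a background of 8.00% of all tested genes called higher, and the 2 lower members beside 6.35% called lower, 14.4% in all. The median log2 change over the 10 members was 0.01, against 0.00 over all tested genes. In 9 of the 10 members the libraries of the genotypes did not overlap, 5 of them with CD38 KO above and 4 with CD38 KO below. Such separation was seen in 59.9% of all tested genes, 30.4% with CD38 KO above and 29.5% below. Mertk alone among the 5 kept its call in each of the 4 fits that left out 1 library, and what the others did without a library is given with each.

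**Figure D1:**
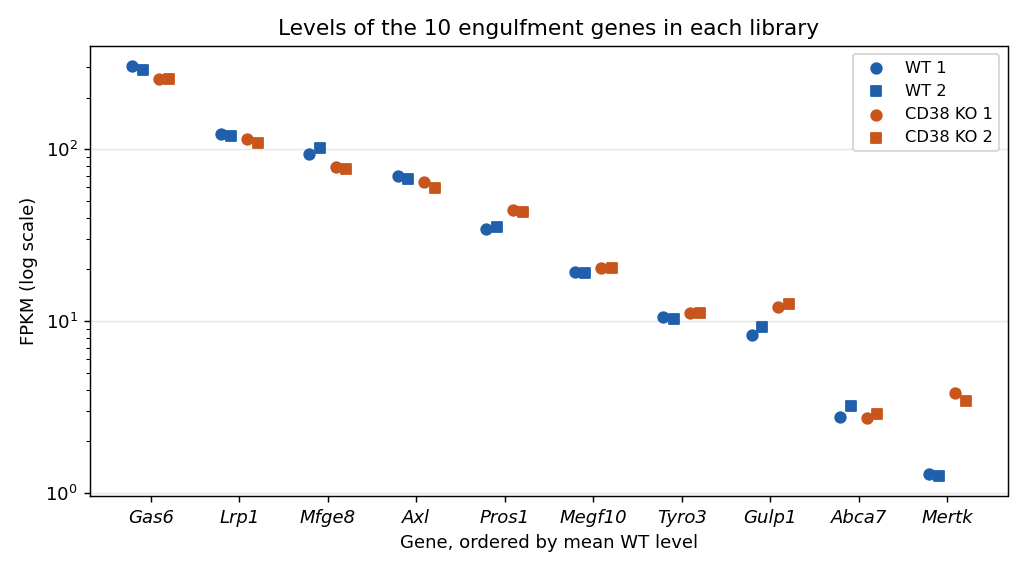
FPKM of each member (log axis) in the 4 libraries, with WT in blue and CD38 KO in orange, circles for replicate 1 and squares for replicate 2. Levels span from about 1.26 FPKM for Mertk in WT to 303 FPKM for Gas6 in WT, and Mertk shows the widest gap between genotypes.

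Among the members, levels per transcript length spanned more than 2 orders of magnitude. In both WT libraries the order from high to low was Gas6, Lrp1, Mfge8, Axl, Pros1, Megf10, Tyro3, Gulp1, Abca7 and Mertk. In both CD38 KO libraries Gulp1 stood above Tyro3 and Mertk above Abca7, and the other places were the same. Neighbours in this order did not overlap between the libraries of a genotype. Gas6 lay above 98.0% of the tested genes by mean FPKM and Lrp1 above 94.7%, whereas Abca7 and Mertk lay above only 15.7% and 12.9%. Agreement between replicates was close, with the higher library at most 1.17 times the lower one (Abca7 in WT).

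Of the receptors, Mertk differed most. Mertk (ENSMUSG00000014361, GRCm38 chromosome 2, 128698956 to 128802894, plus strand) was at 1.29 and 1.26 FPKM in WT, against 3.82 and 3.43 FPKM in CD38 KO. Both CD38 KO libraries lay above both WT libraries. On its single annotated coding transcript these levels stand for about 142 and 146 fragments in WT, against 454 and 408 in CD38 KO. The mean rose 2.84-fold, the group means being 1.28 ± 0.0178 and 3.62 ± 0.281 FPKM (SD, n = 2 each), with a log2 change of 1.02 (SE 0.11, limma adjusted p = 0.00383). The call held without each library in turn, at log2 changes of 0.96 to 1.08 and adjusted p of 0.0315 to 0.0457. The added 1 lowers the estimate of so low a gene, which was 1.43 with 0.1 added instead.

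The macrophage markers rose in the same libraries, by more than Mertk. All 6 tested markers of the macrophage list were called higher, by 3.89-fold to 15.4-fold, with a median log2 change of 2.61. Of all tested genes, 8.00% were called higher and 6.35% lower. Lyz2, the lysozyme of myeloid cells, rose from 61.4 to 402 FPKM and Cd5l, a protein that macrophages secrete, from 5.91 to 91.0 FPKM. Of 13 tested microglia markers 11 were higher, Olfml3 was lower and Sall1 was not called (median 2.27). The call of Tmem119 ended in all 4 fits without 1 library. Of the 11, Tmem119, Cx3cr1 and Itgam were under 1 FPKM in WT and passed the filter only through CD38 KO. Among the others were the signalling adaptor Tyrobp at 6.41 against 51.9 FPKM and the receptor-like Fcrls at 4.71 against 49.6 FPKM. These markers other than Tyrobp and Fcrls, and those that follow, were named after their values were seen. Other defining markers were near 0 in all 4 libraries: Mrc1 was at most 0.258 FPKM, Cd163 at most 0.0244 FPKM, P2ry12 at most 0.633 FPKM, and Siglech was listed at 0. The part of these cells in the Mertk level was not tested, and in bulk RNA more cells of a type and more RNA per cell cannot be told apart.

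Axl was by far the most abundant TAM receptor and was not called. Axl (ENSMUSG00000002602, chromosome 7, 25757273 to 25788705, minus strand) was at 69.5 and 67.4 FPKM in WT, against 64.5 and 59.5 FPKM in CD38 KO. Its libraries did not overlap, with CD38 KO below WT. The log2 change was -0.14 (95% interval, not adjusted for the number of tested genes, -0.28 to -0.005, limma adjusted p = 0.153). Tyro3 (ENSMUSG00000027298, chromosome 2, 119797733 to 119818104, plus strand) was at 10.7 and 10.3 FPKM in WT, against 11.2 FPKM in both CD38 KO libraries. Its log2 change of 0.09 (95% interval -0.07 to 0.24, adjusted p = 0.409) was not called either.

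The make-up of the TAM receptors differed at Mertk more than in the total. Axl made up 85.3% and 85.4% of the summed FPKM of the 3 receptors in WT and 81.1% and 80.3% in CD38 KO. Mertk made up 1.58% and 1.60% in WT and 4.81% and 4.62% in CD38 KO. The sum itself was 81.5 and 79.0 FPKM in WT and 79.5 and 74.1 FPKM in CD38 KO, with overlapping libraries. The ratio of Axl to Mertk was 53.9 and 53.3 in WT and 16.9 and 17.4 in CD38 KO, a 3.13-fold difference in the ratio. With 2 libraries against 2, the exact two-sided permutation test gave p = 0.333, the smallest it allows.

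**Figure D2:**
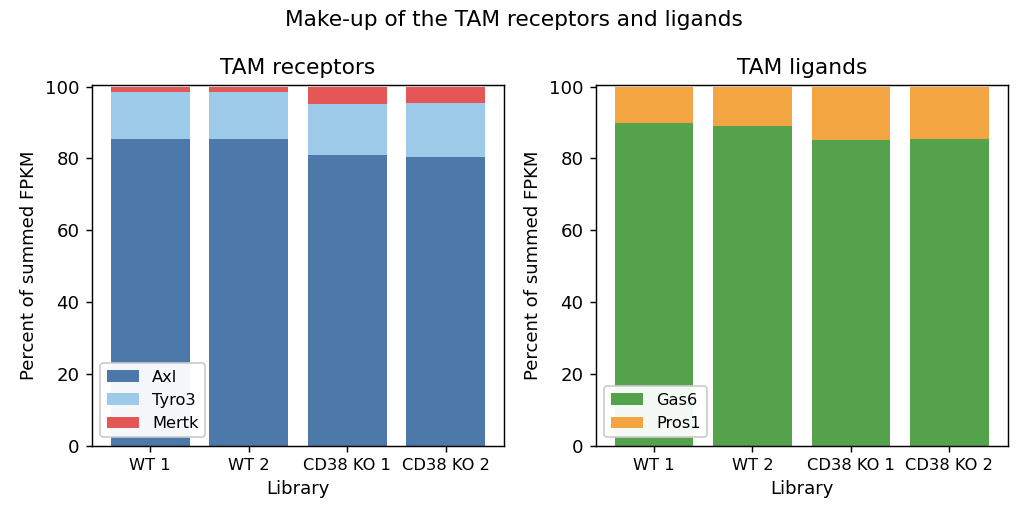
Share of the summed FPKM (percent, stacked bars) taken by Axl, Tyro3 and Mertk among TAM receptors (left) and by Gas6 and Pros1 among TAM ligands (right) in each of the 4 libraries. Mertk takes 1.58% to 1.60% of the receptor sum in WT and 4.62% to 4.81% in CD38 KO, and Pros1 takes 10.1% to 10.9% of the ligand sum in WT and 14.5% to 14.8% in CD38 KO.

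The TAM ligands went in opposite directions. Pros1 (ENSMUSG00000022912, chromosome 16, 62854307 to 62929346, plus strand), whose product protein S also restrains blood clotting, was at 34.2 and 35.2 FPKM in WT, against 44.4 and 43.4 FPKM in CD38 KO. It rose 1.26-fold, the group means being 34.7 ± 0.673 and 43.9 ± 0.719 FPKM (SD, n = 2 each), with a log2 change of 0.33 (SE 0.05, limma adjusted p = 0.00975). The groups lay far apart relative to the spread of each, but the call ended in all 4 fits without 1 library, at adjusted p of 0.0586 to 0.091 and log2 changes of 0.31 to 0.35.

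Gas6 (ENSMUSG00000031451, chromosome 8, 13465374 to 13494490, minus strand), the ligand of all 3 TAM receptors and the most abundant member, was at 303 and 287 FPKM in WT, against 255 and 256 FPKM in CD38 KO. Both CD38 KO libraries were lower than both WT libraries. It fell 1.16-fold, with group means of 295 ± 11.3 and 256 ± 0.375 FPKM (SD, n = 2 each) and a log2 change of -0.21 (SE 0.04, limma adjusted p = 0.0333). This call ended without any 1 library (adjusted p 0.0911 to 0.159), without a filter on low genes (0.11) and when moderation ignored the level of expression (0.106). The ratio of Gas6 to Pros1 was 8.87 and 8.17 in WT and 5.75 and 5.90 in CD38 KO, a 1.46-fold difference (exact two-sided permutation p = 0.333, the smallest possible).

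Mfge8, the other bridging protein, was lower in CD38 KO. Mfge8 (ENSMUSG00000030605, chromosome 7, 79133768 to 79149060, minus strand) was at 94.4 and 102 FPKM in WT, against 78.9 and 76.3 FPKM in CD38 KO, without overlap. It fell 1.27-fold, with group means of 98.3 ± 5.47 and 77.6 ± 1.82 FPKM (SD, n = 2 each) and a log2 change of -0.34 (SE 0.05, limma adjusted p = 0.0145). The call held without WT 1 (0.0371) and ended without WT 2 (0.081), CD38 KO 1 (0.101) or CD38 KO 2 (0.113), and also without a filter (0.0778) and with moderation that ignored the level (0.0503). Of 14 tested astrocyte markers 2 were higher and 8 lower (median -0.24), with 0 to 1 higher and 1 to 4 lower without 1 library. Glul, the glutamine synthetase of astrocytes, fell from 1653 and 1701 FPKM in WT to 1273 and 1154 FPKM in CD38 KO (limma adjusted p = 0.0065), a call that ended without WT 1 (0.0634), without WT 2 (0.0811) and without a filter (0.0847). Beside these astrocyte markers, 8.00% of all tested genes were called higher and 6.35% lower. The filament gene Gfap was not called (adjusted p = 0.0635), though it was with robust moderation (limma adjusted p = 0.0469). The part of this in the levels of Mfge8 and Gas6 was not tested.

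Among the engulfment receptors outside the TAM family, neither Megf10 nor Lrp1 was called. Megf10 (ENSMUSG00000024593, chromosome 18, 57133090 to 57297467, plus strand), a receptor that astrocytes use to take up synapses, was at 19.3 and 19.0 FPKM in WT, against 20.4 and 20.5 FPKM in CD38 KO. The CD38 KO libraries were slightly higher without overlap, and the log2 change was 0.09 (95% interval -0.04 to 0.22, limma adjusted p = 0.303). Lrp1 (ENSMUSG00000040249, chromosome 10, 127538161 to 127621148, minus strand) was at 123 and 119 FPKM in WT, against 114 and 109 FPKM in CD38 KO, again without overlap. Its log2 change was -0.11 (95% interval -0.23 to -0.0001, adjusted p = 0.165). Both intervals end short of the estimates for Pros1 (0.33) and Mfge8 (-0.34), but that of Lrp1 holds the estimate for Gas6 (-0.21). Unlike the adjusted p, these intervals are not adjusted for the number of tested genes. That of Lrp1 ends just short of 0, that of Megf10 holds 0, and neither shows that the levels were equal.

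Gulp1, the adaptor of MEGF10 and LRP1, was higher although neither receptor was called. Gulp1 (ENSMUSG00000056870, chromosome 1, 44551511 to 44796838, plus strand) was at 8.29 and 9.26 FPKM in WT, against 12.1 and 12.6 FPKM in CD38 KO, without overlap. It rose 1.41-fold, the group means being 8.77 ± 0.686 and 12.4 ± 0.363 FPKM (SD, n = 2 each), with a log2 change of 0.45 (SE 0.08, limma adjusted p = 0.0168). The call ended in all 4 fits without 1 library, at adjusted p of 0.0558 to 0.132 and log2 changes of 0.38 to 0.53, and without a filter (0.0796). Whether Gulp1 differed from Megf10 or Lrp1 in its change was not tested.

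Abca7 gave the only overlapping groups. Abca7 (ENSMUSG00000035722, chromosome 10, 79996494 to 80015572, plus strand) was at 2.76 and 3.23 FPKM in WT, against 2.72 and 2.89 FPKM in CD38 KO, and WT 1 lay between the CD38 KO libraries. Its log2 change was -0.07 (95% interval -0.34 to 0.20, limma adjusted p = 0.723). Its interval and that of Mertk are the widest among the members, and a change of the size estimated for Gas6 (-0.21) lies within it.

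**Figure D3:**
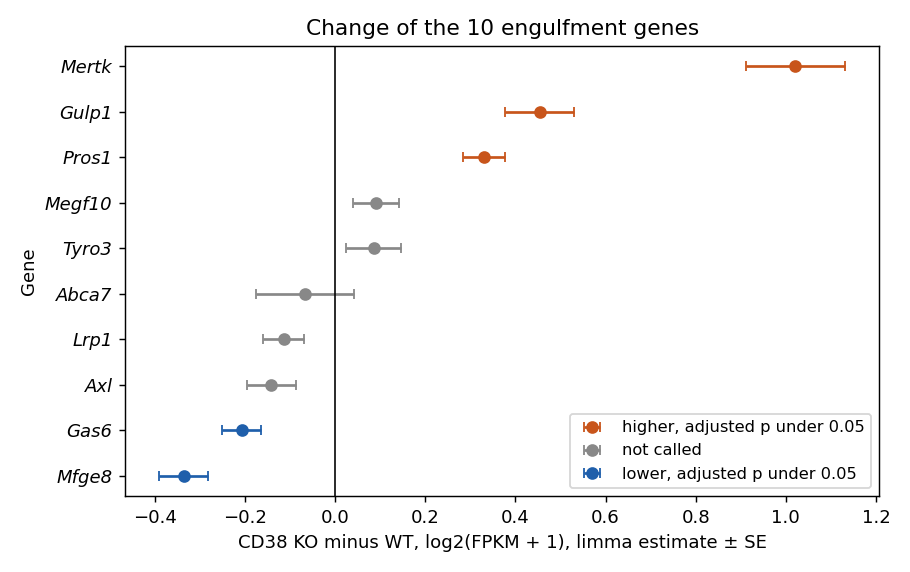
Change of each member (points, limma estimate on log2(FPKM + 1), CD38 KO minus WT, with SE as bars), with called members in orange (higher) and blue (lower) and the others in grey. Mertk stands at 1.02, Gulp1 at 0.45 and Pros1 at 0.33, and Gas6 and Mfge8 at -0.21 and -0.34.

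Genes that share a member's position were near 0. Such genes are annotated at Mertk, Gas6, Gulp1 and Lrp1, and the highest of them, an antisense gene at Lrp1, reached 0.384 FPKM in a single library. Libraries were stranded per the labels' protocols, while the sources used here do not state the strand setting of the counting.

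Promoter sequences are shown for the called TAM receptor, both called TAM ligands and the called bridging protein, since these genes moved in both directions. Windows of 9 members were taken from the RefSeq promoter table (GRCm38.p6), and Megf10 was left out. The 250 bases before the start are printed 5′ to 3′ on the gene's strand, with each GC box (GGGCGG on either strand, a binding site of SP1-type factors) in capitals. The windows are chr2:128698665-128698914 (plus strand) for Mertk, chr16:62854057-62854306 (plus strand) for Pros1, chr8:13494536-13494785 (minus strand) for Gas6 and chr7:79149061-79149310 (minus strand) for Mfge8.
Mertk: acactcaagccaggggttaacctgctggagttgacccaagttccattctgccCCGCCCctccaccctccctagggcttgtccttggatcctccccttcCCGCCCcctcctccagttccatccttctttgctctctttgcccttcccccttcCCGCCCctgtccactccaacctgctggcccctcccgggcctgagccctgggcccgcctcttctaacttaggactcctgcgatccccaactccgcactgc
Pros1: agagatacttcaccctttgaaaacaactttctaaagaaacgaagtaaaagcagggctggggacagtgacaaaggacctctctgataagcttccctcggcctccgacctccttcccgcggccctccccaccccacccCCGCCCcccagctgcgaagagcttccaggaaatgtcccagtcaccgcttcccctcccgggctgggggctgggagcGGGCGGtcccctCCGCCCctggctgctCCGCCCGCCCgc
Gas6: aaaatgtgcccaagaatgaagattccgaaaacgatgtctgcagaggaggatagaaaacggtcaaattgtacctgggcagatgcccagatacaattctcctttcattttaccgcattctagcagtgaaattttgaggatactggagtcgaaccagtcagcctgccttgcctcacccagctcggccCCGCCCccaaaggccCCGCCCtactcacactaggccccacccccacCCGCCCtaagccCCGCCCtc
Mfge8: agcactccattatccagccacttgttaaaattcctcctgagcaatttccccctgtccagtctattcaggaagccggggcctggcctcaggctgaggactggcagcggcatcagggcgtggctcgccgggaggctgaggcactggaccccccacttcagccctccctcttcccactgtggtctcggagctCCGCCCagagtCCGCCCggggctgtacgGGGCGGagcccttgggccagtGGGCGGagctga

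GC boxes stood before higher and lower genes alike. The window of Mertk holds 3 matches, that of Pros1 5 with 2 of them overlapping, and those of Gas6 and Mfge8 4 each. All 9 scanned members hold at least 1 match, against 32.7% of all 32851 windows of this length. The latter include those of noncoding genes. GC content ran from 54.8% in Gas6 to 73.2% in Tyro3, and its part in the GC box matches was not tested. The core of the myeloid factor PU.1 (GAGGAA on either strand) was found at Axl and Mfge8, not at Mertk, and in 23.3% of all windows. A STAT-type motif (TTCNNNGAA) was found at Pros1 and Lrp1, and in 7.02% of windows. An AP-1 motif (TGANTCA, 6.75% of windows) and a TATA box (TATAAA on either strand, 12.4%) were found in none of the 9. A match says only that these letters are present.

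Of 28 other receptors and bridges for dying cells 14 were tested, of which 9 were called higher and 1 lower in CD38 KO, where 8.00% and 6.35% of all tested genes were. The median log2 change of the 14 was 0.30. Cd36, a scavenger receptor that binds oxidised lipids, rose from 2.46 ± 0.122 to 14.2 ± 0.615 FPKM (SD, n = 2 each; log2 change 2.14, limma adjusted p = 0.000102). Lgals3, which encodes galectin-3, a lectin reported as a MERTK ligand, rose 2.18-fold to 31.4 FPKM, Trem2, a lipid receptor of microglia, 4.73-fold to 5.36 FPKM, and Stab1, a phosphatidylserine receptor of macrophages, 7.77-fold to 4.49 FPKM. Calr, the chaperone calreticulin, which marks dying cells for LRP1 when exposed, fell 1.38-fold from 490 to 356 FPKM. Without 1 library 4 or 5 genes of the list stayed higher, and those called in all 4 such fits were Cd36, Lgals3, Trem2 and Stab1, with Calr on the lower side. The other higher genes, named after their values were seen, were Itgb5, Adgrb1, Msr1, Anxa5 and Colec12, at log2 changes of 0.24 to 1.29. Stab1 and Msr1 were under 1 FPKM in WT and passed the filter only through CD38 KO, where they are high. Beside this list stand the macrophage markers (median 2.61), whose part was not tested.

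Of 6 genes that brake engulfment 5 were tested, and 3 were called higher and none lower, where 8.00% and 6.35% of all tested genes were. Macrophage markers (median 2.61) were higher in the same libraries, and their part was not tested. Siglece, an inhibitory sialic acid receptor of myeloid cells, rose from 0.177 and 0.316 FPKM in WT to 7.35 and 5.13 FPKM in CD38 KO (limma adjusted p = 0.000805), and passed the filter only through CD38 KO. Sirpa, the receptor for the signal that spares healthy cells, rose 1.31-fold to 78.5 FPKM (log2 change 0.39, adjusted p = 0.0098), and Cd47, its ligand, 1.16-fold to 62.1 FPKM (0.21, adjusted p = 0.0316). Sirpa kept its call only without WT 1, and Cd47 lost it in all 4 fits without 1 library (up to 0.101 and 0.157). Cd200, a ligand that restrains myeloid cells, was at 21.5 and 20.5 FPKM in WT against 13.9 and 18.4 FPKM in CD38 KO (adjusted p = 0.114), and was called lower without CD38 KO 2 (0.0499). Cd24a was at 57.4 against 57.7 FPKM (adjusted p = 0.919).

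Of all tested genes 8.00% were called higher and 14.4% in either direction. The signalling path from the receptors to the cytoskeleton and the phagosome was called in 3 of 26 tested genes, all higher. Its 3 called genes are known for expression in blood cells: Vav1, an exchange factor for RAC, rose from 1.29 to 8.85 FPKM (limma adjusted p = 0.000137), Rac2, a RAC GTPase, from 7.15 to 33.7 FPKM (adjusted p = 0.000344) and Dock2, another RAC exchange factor, from 0.408 to 2.27 FPKM (adjusted p = 0.00469). Without 1 library their log2 changes ran from 2.08 to 2.12 (Vav1), 1.93 to 2.27 (Rac2) and 1.15 to 1.28 (Dock2). Dock2 passed the filter only through CD38 KO, so no share of this list is set against that of all tested genes. Of related genes, Rac1 was at 286 and 278 FPKM in WT against 269 and 268 FPKM in CD38 KO (adjusted p = 0.296). Dock1 was at 28.0 and 25.4 against 26.2 and 24.6 FPKM (adjusted p = 0.557). Neither was called, and both were named after their values were seen. Cdc42, a GTPase of the actin cytoskeleton (log2 change -0.13, adjusted p = 0.0755), and the kinase Src (-0.13, adjusted p = 0.134) did not pass. Macrophage markers (median 2.61) were higher in the same libraries, and their part was not tested.

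Genes that set the level or activity of TAM signalling were called lower in 2 of 17 tested genes and higher in none, where 6.35% and 8.00% of all tested genes were. Socs3, a feedback inhibitor of cytokine signalling that TAM receptors are known to induce in myeloid cells, fell 2.23-fold, from 124 and 141 FPKM in WT to 56.1 and 62.6 FPKM in CD38 KO (log2 change -1.14, SE 0.08, limma adjusted p = 0.000899). It kept the call in all 4 fits without 1 library. Pik3r1, a regulatory subunit of PI3-kinase, fell 1.16-fold to 36.1 FPKM (adjusted p = 0.0372), a call that ended in all 4 such fits (up to 0.169). Nr1h3, a liver X receptor known to drive Mertk in macrophages, was at 10.9 and 10.2 FPKM in WT. In CD38 KO it was at 13.3 and 12.5 FPKM (log2 change 0.27, adjusted p = 0.0593). Its partner Rxra had a log2 change of 0.21 (adjusted p = 0.0873), and Adam17, the protease that sheds MERTK from the surface, one of -0.16 (adjusted p = 0.0973), and none of these passed. Ggcx and Vkorc1, which serve the vitamin K-dependent modification that GAS6 and protein S need, were not called (adjusted p = 0.849 and 0.538).

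Flippases and scramblases, which hide or expose phosphatidylserine, were called in 2 of 9 tested genes out of 12, where 14.4% of all tested genes were. Atp8a1, a flippase, rose 1.61-fold from 4.44 to 7.13 FPKM (log2 change 0.58, limma adjusted p = 0.00883), and Atp11a, another flippase, fell 1.18-fold from 53.6 to 45.4 FPKM (-0.24, adjusted p = 0.0433). Both calls ended in all 4 fits without 1 library (up to 0.0866 and 0.185). The scramblase Xkr8 had a log2 change of 0.31 (adjusted p = 0.101), Atp11b of -0.10 (adjusted p = 0.313) and Plscr1 of 0.14 (adjusted p = 0.422), and none of these was called.

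**Figure D4:**
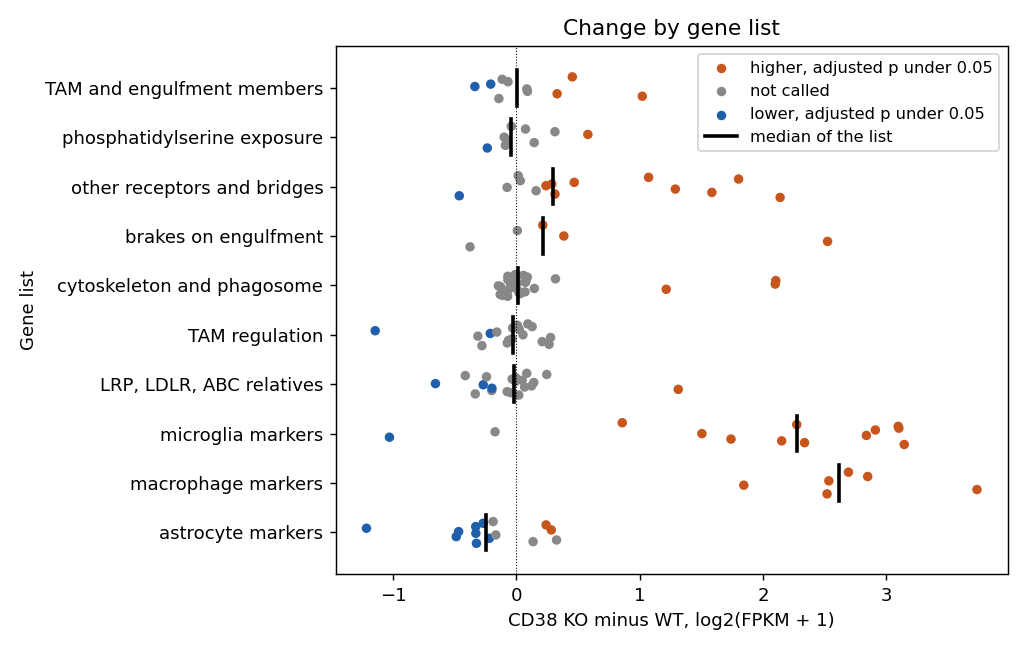
Change of every tested gene (points, log2(FPKM + 1), CD38 KO minus WT) by list, with orange for genes called higher, blue for lower, grey for not called and a black bar at the list median. The members centre at 0.01 and other receptors and bridges at 0.30, while microglia and macrophage markers centre at 2.27 and 2.61 and astrocyte markers at -0.24.

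Over all 6 pathway lists 17 of 91 tested genes were higher and 7 lower, and 9 to 10 and 3 to 4 without 1 library. The 17 include Stab1, Msr1, Siglece and Dock2, which passed the filter only through CD38 KO, so no share is set against that of all tested genes. Macrophage markers (median 2.61) were higher in the same libraries, and their part was not tested. The median log2 change of the 91 genes was 0.02. Of the 6 lists, those of other receptors and bridges and of brakes had medians of 0.30 and 0.21, and the medians of the others lay between -0.04 and 0.01.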

How the data were processed

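The authors deposited FPKM values per gene, 1 file for each library, per the file headers. Tools listed in the submitters' processing notes are STAR 2.7.0f, Cufflinks 2.2.1 and bcl2fastq 2.17, with the build GRCm38. The sources used here do not state the annotation release, the strand setting or whether libraries were scaled to each other. Positions are those of GENCODE M21 (GRCm38), where 55226 of 55467 gene IDs were found.

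Depth was estimated from the steps that single fragments leave in low FPKM values of genes with 1 annotated transcript. Between 92.0% and 93.1% of values below 10 fragments fell within 0.1 of a whole number.

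Genes whose mean reached 1 FPKM were tested with limma 3.58.1 (R 4.3.3) for genotype alone on log2(FPKM + 1), with a variance trend and Benjamini-Hochberg adjustment over 13064 genes at 0.05. Fold changes are ratios of mean FPKM without the added 1. No count test was run, since the values are not counts. Simulated data had 13064 genes with 2 libraries against 2. The fit recovered 36.4% of changes of 0.5 (log2), 73.2% of changes of 1 and 89.6% of changes of 2. These were 250, 500 and 250 changes over 5 runs, a far smaller share of genes than the 14.4% called in the data. At that share the rates may differ. Other steps used Python 3.11.15.

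The members and the gene lists were chosen with earlier results of these data known. The text names all 10 members, Cd38, the 5 genes of smallest p in each pathway list, the 2 most abundant tested genes of each marker list, and the 3 genes nearest to Mertk in pattern. Genes beyond this rule were named after their values were seen, among them Msr1, Ggcx and Vkorc1. Alternatives were other added values, filters, scalings and moderation, replicate number as a block, protein-coding genes only, and each library left out. A fit without 1 library assumes that the lone library of its genotype varies like the other genotype.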

Additional observations from a re-analysis of the deposited data

How the results depend on the processing

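The 5 called members kept their direction under every alternative, and Mertk kept its call wherever it was tested (a filter at 5 FPKM removed it and Abca7). Among members the direction turned for Abca7 alone, whose log2 change ran from -0.15 without WT 1 to 0.017 without WT 2. Members called higher numbered 3 with all libraries and 1 in each fit without 1 library. Members called lower numbered 2 with all libraries and 0 to 1 without 1 library, 0 without a filter, 0 with moderation that ignored the level, and 1 with replicate number as a block. The genes called higher numbered 1045 and those lower 830, against 306 to 458 and 225 to 284 without 1 library, 430 and 312 without a filter, and 610 and 427 with the replicate block. Pathway genes called higher numbered 17, against 9 to 10 without 1 library, 10 without a filter and 10 at a filter of 5 FPKM. Pathway genes called lower numbered 7, against 3 to 4 without 1 library, 3 without a filter, 4 with moderation that ignored the level and 3 with the replicate block. Fewer samples or more tested genes enter some of these fits by construction, and for the others the cause was not tested. Without a filter the calls of Atp8a1, Atp11a, Sirpa, Cd47, Pik3r1, Abcg1, Abca2, Abca3, Glul and Gad1 ended too (adjusted p 0.0529 to 0.121). Cd24a, not called, turned to -0.0054 without WT 2 and -0.011 without CD38 KO 1, and stood at 0.028 without CD38 KO 2.

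The replicate numbers were not taken to pair the libraries, since the labels do not tie them to a litter, batch or day. Same-numbered libraries deviated from their group means with a correlation of -0.16 over 13064 genes. The replicate block ended the call of Gas6 (limma adjusted p = 0.0764) and of no other member. A block that crosses the numbers, chosen after seeing the data, called 3 members higher and 2 lower; genes called higher in CD38 KO numbered 1102 and genes called lower in CD38 KO 859. Depth was similar in all libraries, and Mertk, the lowest member in WT, rested there on about 142 and 146 fragments.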

Other observations

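Abcg1 was higher and Lrp4, Abca2 and Abca3 lower in CD38 KO among relatives of LRP1 and ABCA7. Of 25 genes of the LRP, LDL receptor and ABC transporter families 20 were tested, of which 1 was called higher and 3 lower, where 8.00% and 6.35% of all tested genes were. The median log2 change of the 20 was -0.02. Abcg1, a cholesterol exporter, was at 1.55 and 1.91 FPKM in WT and rose to 6.70 and 4.95 FPKM in CD38 KO (limma adjusted p = 0.00518), beside macrophage markers with a median of 2.61. Lrp4, a receptor of agrin at the nerve-muscle synapse, fell 1.60-fold, from 36.4 FPKM in each WT library to 22.2 and 23.3 FPKM in CD38 KO (log2 change -0.66, limma adjusted p = 0.0012). Both were called in all 4 fits without 1 library, and the call of Abcg1 ended without a filter (0.0649). Abca2 and Abca3, lipid transporters, fell 1.21-fold and 1.15-fold (adjusted p = 0.0202 and 0.0392), and these calls ended in all 4 such fits. Abca1, a cholesterol exporter related to ABCA7 and named after its values were seen, measured 86.1 and 89.8 FPKM in WT against 96.3 and 82.5 FPKM in CD38 KO, and Lrp12 was not called (adjusted p = 0.0988).

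The tested genes nearest to Mertk in pattern over the 4 libraries were Nrp2, Mdm2 and Gusb, at distances of 0.028, 0.041 and 0.056 on the centred log2(FPKM + 1) scale. Nrp2, a semaphorin and VEGF receptor, rose from 3.63 to 8.23 FPKM, Mdm2, a ubiquitin ligase that targets p53, from 72.3 to 147 FPKM, and Gusb, a lysosomal glucuronidase, from 16.7 to 34.8 FPKM.

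Islr, listed among fibroblast markers, fell from 417 and 406 FPKM in WT to 141 and 152 FPKM in CD38 KO. Its limma adjusted p was 8.47e-05, and its log2 change without 1 library ran from -1.54 to -1.43. Every other marker of that list stayed at or below 26.4 FPKM (Col1a1 in CD38 KO 1). Whether Islr stands for fibroblasts in these libraries was not tested. Of 7 tested fibroblast markers Islr and Ogn were called lower, Ogn losing its call in all 4 fits without 1 library. The collagen Col1a1 was not called (adjusted p = 0.0988), and neither were Col1a2, Col3a1, Dcn and Foxc1. In CD38 KO the means of these 5 were 1.06 to 1.63 times those in WT, with overlapping libraries in all but Col1a1. The median log2 change of the 7 was 0.10. The neuronal growth protein Stmn2 rose from 30.7 and 28.8 to 54.8 and 56.1 FPKM (adjusted p = 0.000411), whereas Gad1, the enzyme that makes GABA, fell from 71.4 and 81.5 to 46.1 and 41.7 FPKM (adjusted p = 0.00334), a call that ended without CD38 KO 2 (0.0581). These were 2 of 3 tested neuronal markers, and the other 8 of the list were at most 0.304 FPKM in any library. Foxj1, the master factor of motile cilia, rose from 39.4 and 37.7 to 57.0 and 54.7 FPKM (adjusted p = 0.00266), with Dynlrb2 and Pifo also called higher among 4 tested ependymal markers and Rarres2 not called. Dynlrb2 kept its call in 1 and Pifo in 2 of the 4 fits without 1 library (up to 0.154 and 0.116), and Pifo passed the filter only through CD38 KO. Of 7 tested oligodendrocyte lineage markers Olig2 and Pdgfra were lower, and Olig1 and Cnp were not called (adjusted p = 0.0774 and 0.481). Olig2 lost its call in all 4 fits without 1 library, and Pdgfra kept its call in only 1 of them. None of the 9 endothelial and mural markers reached the filter, and their summed level was 1.93 and 1.37 FPKM in WT against 3.38 and 2.93 FPKM in CD38 KO. Ogn, Col1a2, Col3a1, Dcn, Foxc1, Dynlrb2, Pifo, Olig2 and Pdgfra were named after their values were seen. The 3 untested fibroblast markers were at most 0.171 FPKM in any library. Beside the calls in these marker lists, 8.00% of all tested genes were called higher and 6.35% lower.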
